A study of Homo sapiens with 12 samples.

Results

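Mucin-type glycosylation enzymes build sugar chains on the serine and threonine residues of mucins and other secreted or surface proteins. Polypeptide GalNAc transferases (GALNT genes) attach the first sugar, C1GALT1 or B3GNT6 turns it into a core structure, and GCNT enzymes branch that core. Galactosyl- and GlcNAc-transferases lengthen the chain, and fucosyl- and sialyltransferases cap it. In the colon these chains make up most of the mass of the secreted mucins that form the mucus gel, and their shortening and altered capping are long-known features of colorectal tumours. The set examined here held 36 such genes of the 25528 rows of the expression table, chosen by symbol from a fixed list of enzyme names, and all 36 had a row. It was not confined to mucins, since FUT8 and ST6GAL1 act mainly on N-linked chains and B3GNT5 mainly on glycolipids.

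The RNA came from HT-29 cells, a long-established line from a human colon adenocarcinoma. Its APC is mutant by the label, so every group, controls included, has this background. Cells were infected with lentivirus encoding GFP or CTNNB1 (beta-catenin) and collected 2 days after infection, or carried a hairpin named shNT1 or 1 against APC (shAPC) and were collected 1 day after induction (doxycycline at 2 µM, given to both hairpin groups). There were 3 libraries in each of 4 groups, 12 in all, numbered by replicate within the group. The labels do not give the form of the CTNNB1 insert, the number of hairpins used against APC, or whether replicates were separate cultures, so p-values measure the spread between these libraries, which may be technical. The 2 arms differed in vector, collection time and doxycycline, which cannot be told apart when levels or effects are set across them.

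Levels are given as TPM (reads scaled for gene length and to the same total in every library), and read depth is unknown because TPM does not keep it. Between 14754 and 16184 genes were above 0 TPM per library. Of 10 colon epithelial markers 8 averaged at least 1 TPM in each group, while CDX2 and CDH17 stayed under 1 TPM in every group. Of 9 immune, endothelial and stromal markers only CD68 reached a mean of 1 TPM, and CD3E was at 0 in all 12 libraries. The summed TPM of these 9 was at least 27.1 in GFP and ranged from 12.7 to 14.5 in CTNNB1, 13.7 to 15.1 in shNT1 and 6.93 to 9.23 in shAPC. CD68 made up most of it and was lower in both perturbed groups, at 13.2 against 27.0 TPM and 7.51 against 13.8 TPM. Its part in the results was not tested. As a check of the labels, APC stood at 5.99 ± 0.56 TPM in shAPC against 16.4 ± 0.80 TPM in shNT1 (SD, n = 3), and the WNT target AXIN2 averaged 92.1 ± 3.9 against 29.9 ± 1.8 TPM. The CTNNB1 transcript itself measured 144, 145 and 149.6 TPM in GFP and 165, 159.6 and 156 TPM in the group labelled CTNNB1. All 3 libraries of that group were higher, but the log2 fold change of 0.13 (SE 0.04, limma adjusted p = 0.059) was not called. AXIN2 in the group labelled CTNNB1 averaged 81.6 ± 1.5 TPM against 39.2 ± 1.9 TPM in GFP (SD, n = 3).

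The enzymes spanned a wide range of levels. Over all 12 libraries 4 members averaged 100 TPM or more, 19 lay between 10 and 100 TPM, 8 between 1 and 10 TPM and 5 under 1 TPM. GCNT3, the mucin-type branching enzyme of colon and stomach, stood far above the rest at 634 TPM (453 to 819 TPM over the libraries), and it alone took between 25.7% and 36.9% of the summed TPM of all 36 genes in any library. ST3GAL1 followed at 168 TPM, then GALNT3 at 121 TPM and GALNT7 at 110.4 TPM. GALNT3 and GALNT7 overlapped in range, as did neighbours further down such as B4GALT3 (44.5 TPM), GALNT1 (42.6 TPM) and GALNT2 (41.3 TPM). At the bottom were GALNT5, ST3GAL6, GALNT8 and GALNT4, with means from 0.514 to 0.708 TPM. B3GNT6, the core 3 synthase typical of normal colon, ranged from 0 to 0.343 TPM. These 5 genes were below the minimum mean of 1 TPM and were not tested. FUT3, the Lewis fucosyltransferase, averaged 1.03 TPM and passed the minimum in the hairpin arm and in the fit of all libraries, but not in the CTNNB1 arm. FUT3 has close paralogs in FUT5 and FUT6, and the readthrough gene POC1B-GALNT4 overlaps GALNT4, so the separate values of both depend on how shared reads were assigned.

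**Figure D1:**
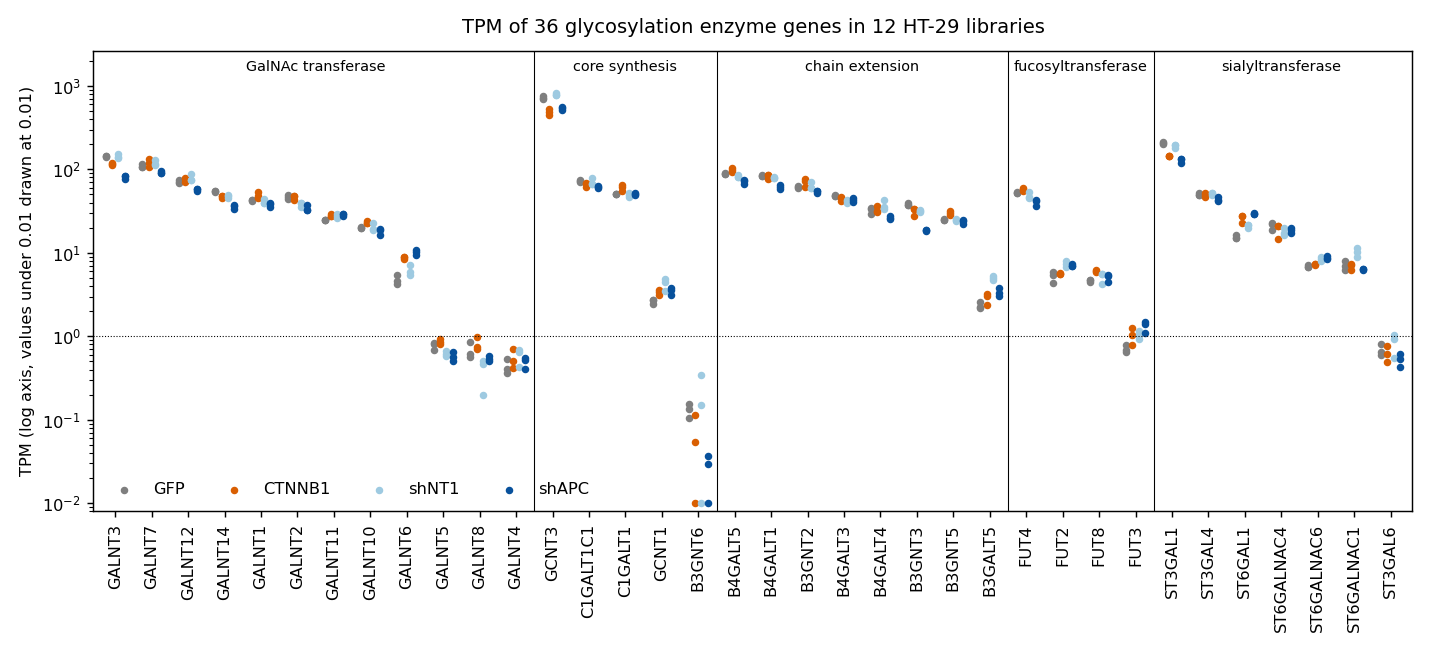
TPM of the 36 genes on a log axis, 1 point per library, grouped by the step each enzyme performs and ordered by mean within the step, with the dotted line at 1 TPM. GCNT3 lies highest in all 12 libraries, and B3GNT6 lies lowest with values from 0 to 0.343 TPM.

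Both perturbations changed part of the set. In the CTNNB1 arm 12 of the 30 members tested passed the threshold (limma, adjusted p under 0.05 over all genes), 7 higher and 5 lower. Of all 11624 genes tested in that arm 23.5% passed, 16.3% higher and 7.16% lower. The member count fell to 7 without GFP replicate 2 and to 6 without GFP replicate 3. Under the APC hairpin 16 of 31 members passed, 2 higher and 14 lower, and of all 11834 genes 22.1% passed, 7.24% higher and 14.9% lower. The median log2 fold change of the members was 0.08 in the CTNNB1 arm, where all genes had 0.06, and -0.21 in the shAPC arm, where all genes had -0.04. Median-ratio scaling of the libraries gave 5 higher and 6 lower members in the CTNNB1 arm, where all genes then had 1254 higher and 1461 lower. Quantile normalization gave 5 and 5 members, with 1345 and 1192 of all genes. For shAPC median-ratio scaling gave 2 higher and 13 lower members (all genes 1264 and 1589), and quantile normalization 2 and 11 (all genes 1338 and 1368). The perturbed and control libraries did not overlap for 18 of 30 members in the CTNNB1 arm, 11 higher and 7 lower. Among all genes the share was 43.2%, made up of 30.2% higher and 13% lower. They did not overlap for 19 of 31 members in the shAPC arm, 2 higher and 17 lower, where all genes had 40.9%, made up of 14.5% higher and 26.4% lower. In bulk RNA fewer cells of a kind and less RNA per cell cannot be told apart.

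Of the 30 members tested in both arms, 7 passed with the same sign in each, 2 higher and 5 lower, and 0 passed with opposite signs. Over the 11556 genes tested in both arms, 7.31% passed with the same sign, 4.08% higher and 3.24% lower, and 1.03% with opposite signs. GALNT6 and ST6GAL1 rose, and GALNT3, GALNT14, GCNT3, B3GNT3 and ST3GAL1 fell. A further 5 members passed in the CTNNB1 arm and not in the shAPC arm, and 9 the other way round. The share of all genes that passed in 1 arm only was not computed, so this split has no background beside it. Per arm, 23.5% of all genes passed with CTNNB1 and 22.1% with shAPC. The contrast of the arms was called for GALNT10 and B3GNT5 of the 5 but not for C1GALT1, FUT8 or GALNT11 (limma adjusted p = 0.11, 0.11 and 0.28). Of the 9 it was called for all but ST3GAL4 (adjusted p = 0.089). These contrast calls depended on scaling in part. Under median-ratio scaling the contrast was called for neither GALNT10 nor B3GNT5, and of the 9 it was also lost for ST6GALNAC1. The controls of the arms are separate libraries.

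**Figure D2:**
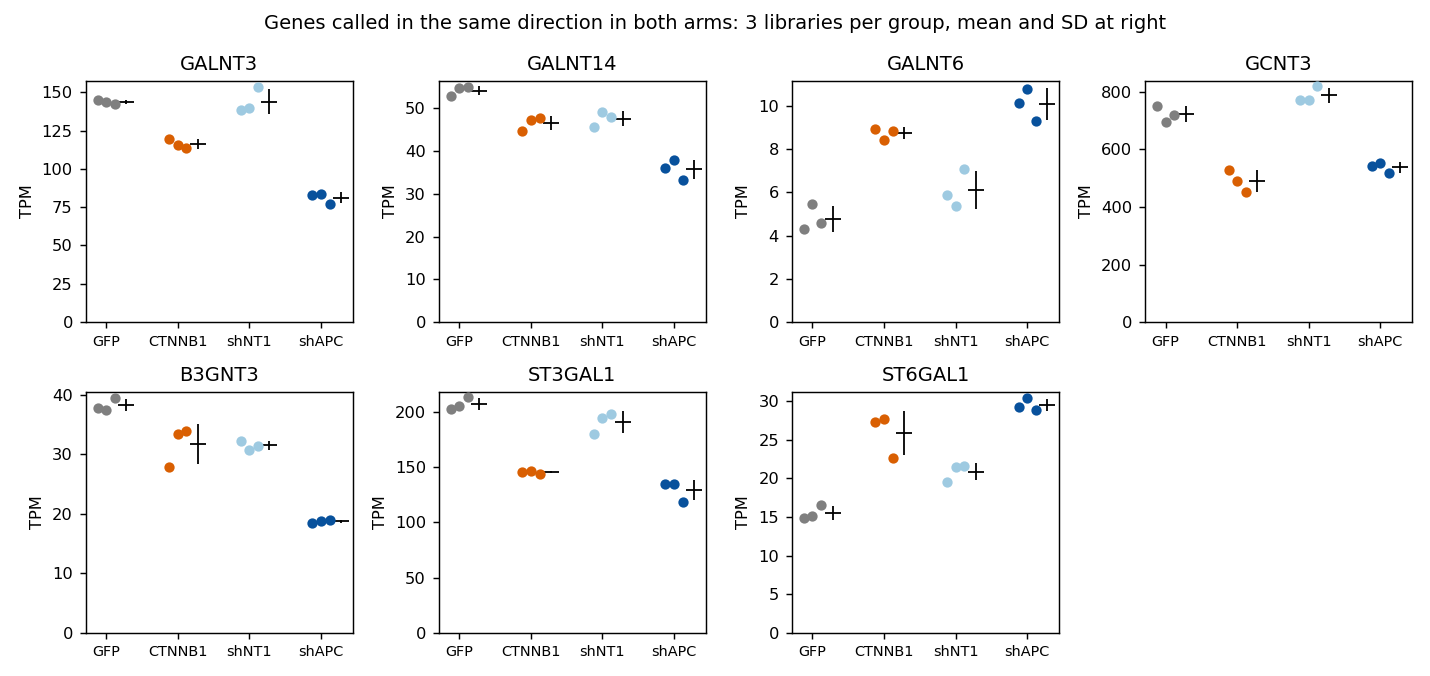
TPM (linear axis from 0) of the 7 genes called in the same direction in both arms, 1 point per library, with the group mean and SD at the right of each group. In every panel the perturbed libraries lie on 1 side of all 3 libraries of their own control.

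For 3 of these 7 genes, 1 of the branching step, 1 of chain extension and 1 of capping, DNA just upstream of the RefSeq start is shown, to let the reader compare promoters of genes that fell (GCNT3, B3GNT3) and rose (ST6GAL1). Each stretch is the longest run within the 250 bases before the start that no GENCODE v29 exon covers. The stretches differ in length and in distance from the start, so their base contents are not of like regions. All are on the + strand of GRCh38.p14, with CpG dinucleotides in capitals. They lie at chr15:59611677-59611782 for GCNT3, chr19:17794888-17795109 for B3GNT3 and chr3:186930276-186930484 for ST6GAL1.
GCNT3: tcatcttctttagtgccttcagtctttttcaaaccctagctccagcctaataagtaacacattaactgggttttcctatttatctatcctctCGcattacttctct
B3GNT3: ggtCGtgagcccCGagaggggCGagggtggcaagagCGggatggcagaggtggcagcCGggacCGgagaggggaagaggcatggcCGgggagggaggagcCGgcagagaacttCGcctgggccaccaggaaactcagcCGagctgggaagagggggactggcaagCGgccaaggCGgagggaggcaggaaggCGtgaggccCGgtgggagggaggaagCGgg
ST6GAL1: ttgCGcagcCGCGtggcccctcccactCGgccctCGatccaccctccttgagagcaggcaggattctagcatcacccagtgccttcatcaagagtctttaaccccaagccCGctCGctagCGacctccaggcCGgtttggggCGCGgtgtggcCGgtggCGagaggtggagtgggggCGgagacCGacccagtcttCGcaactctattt
The GCNT3 stretch was poor in G and C (37.7%) and held 1 CpG in 106 bases. B3GNT3 had 71.2% G and C with 15 CpG in 222 bases, and ST6GAL1 64.1% with 16 CpG in 209 bases. In the full 250-base window GCNT3 had 2 CpG, while the median was 21 over 48 windows of the 29 members with an entry. Of these 48 windows 7, GCNT3 included, had 2 or fewer. Over 35116 windows of all genes the median was 11, and 22.9% had 2 or fewer. The TCF/LEF core motif CTTTGAT, read on both strands, was found in 0 of the 48 member windows and in 2.26% of all windows. A missing match says only that these letters are not in this window.

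Chain initiation was examined first. GALNT3, which also glycosylates the hormone FGF23, fell in both arms and fell most in shAPC. GALNT3 (ENSG00000115339) measured 145, 144 and 142 TPM in GFP and 119.6, 116 and 113 TPM in CTNNB1. In the hairpin arm it measured 138, 140.0 and 153 TPM in shNT1 and 82.8, 83.6 and 77.0 TPM in shAPC. The groups did not overlap in either arm. On the log2 scale the change was -0.30 (SE 0.04, limma adjusted p = 0.0011) in the CTNNB1 arm and -0.82 (SE 0.06, adjusted p = 1.7e-05) in the shAPC arm. The fall was larger under shAPC, by 0.51 on the log2 scale (SE 0.07, limma adjusted p = 0.00048 for the contrast of the arms), and this difference was called under median-ratio scaling as well.

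GALNT6, the closest relative of GALNT3, moved the opposite way. GALNT6 (ENSG00000139629) measured 4.29, 5.46 and 4.57 TPM in GFP and 8.93, 8.40 and 8.81 TPM in CTNNB1. It measured 5.86, 5.37 and 7.08 TPM in shNT1 and 10.1, 10.8 and 9.31 TPM in shAPC. Every perturbed library was above every control library of its arm. In log2 terms it rose by 0.76 with CTNNB1 (SE 0.09, limma adjusted p = 0.00033) and by 0.64 with shAPC (SE 0.10, adjusted p = 0.0016). The difference between the arms, 0.11 with a 95% interval from -0.18 to 0.41, did not pass the threshold. The ratio of GALNT6 to GALNT3 TPM went from 0.0332 ± 0.0043 in GFP to 0.0750 ± 0.0026 in CTNNB1, and from 0.0423 ± 0.0039 in shNT1 to 0.124 ± 0.0042 in shAPC (SD, n = 3).

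GALNT14, which has been linked to glycosylation of death receptors, was lower in both arms. GALNT14 averaged 54.2 ± 1.1 TPM in GFP and 46.6 ± 1.6 TPM in CTNNB1 (log2 fold change -0.21, SE 0.05, limma adjusted p = 0.015). Without GFP replicate 2 or replicate 3 this call was lost (adjusted p = 0.074 and 0.062). Its mean was 47.6 ± 1.8 TPM in shNT1 and 35.7 ± 2.3 TPM with the APC hairpin (-0.41, SE 0.06, limma adjusted p = 0.0016). The libraries of each arm did not overlap.

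GALNT7 and GALNT12 fell only under the APC hairpin by the test of each arm, and the difference between arms was itself called. GALNT7, which adds GalNAc to peptides that already carry it, measured 114, 117 and 131 TPM in shNT1 and 90.9, 96.1 and 90.5 TPM in shAPC. This is a log2 fold change of -0.38 (SE 0.06, limma adjusted p = 0.0021) against 0.11 (SE 0.07, adjusted p = 0.30) in the CTNNB1 arm, and the arms differed by 0.49 (adjusted p = 0.0066). GALNT12, an isoenzyme of the digestive tract, measured 73.9, 75.2 and 87.8 TPM in shNT1 and 58.2, 58.5 and 55.6 TPM in shAPC. This is a log2 fold change of -0.45 (SE 0.07, limma adjusted p = 0.0016) against 0.07 (SE 0.06, adjusted p = 0.42), and the arms differed by 0.52 (adjusted p = 0.0028). Both genes had all 3 shAPC libraries below all 3 shNT1 libraries.

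GALNT10 and GALNT11 showed small rises in the CTNNB1 arm that depended on settings. GALNT10 averaged 20.2 ± 0.45 TPM in GFP and 23.4 ± 0.78 TPM in CTNNB1 (log2 fold change 0.20, limma adjusted p = 0.028). GALNT11 averaged 24.8 ± 0.25 and 28.1 ± 0.75 TPM (0.17, adjusted p = 0.043). Under median-ratio scaling neither was called (0.13, adjusted p = 0.066, and 0.10, adjusted p = 0.14), and neither was without any 1 of the 3 GFP libraries or without CTNNB1 replicate 2 (adjusted p from 0.065 to 0.14). GALNT11 was also lost without CTNNB1 replicate 3 (adjusted p = 0.051). With shAPC, GALNT10 had -0.16 and GALNT11 0.05 on the log2 scale, and neither was called.

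The broadly expressed isoenzymes GALNT1 and GALNT2 were called in neither arm. GALNT1 had log2 fold changes of 0.18 (limma adjusted p = 0.072) and -0.11 (adjusted p = 0.23), and GALNT2 had -0.03 and -0.15. The summed TPM of the 12 GalNAc transferases was 520.2 ± 5.3 in GFP, 514 ± 20 in CTNNB1, 526 ± 34 in shNT1 and 397 ± 16 in shAPC (SD, n = 3). The mix of isoenzymes also differed within each arm. GALNT3 made up 27.6% ± 0.47 of this sum in GFP and 22.6% ± 0.33 in CTNNB1, and 27.3% ± 0.19 in shNT1 and 20.4% ± 0.25 in shAPC. GALNT3 was above GALNT7 in every control library, with ratios of 1.26 to 1.36 in GFP and 1.17 to 1.21 in shNT1. In shAPC the order turned, with ratios of 0.851 to 0.911, and in CTNNB1 the genes were level within the spread (0.904 to 1.06). The 8 other members of the GalNAc transferase family on the wider pathway list summed to at most 0.398 TPM in any library.

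**Figure D3:**
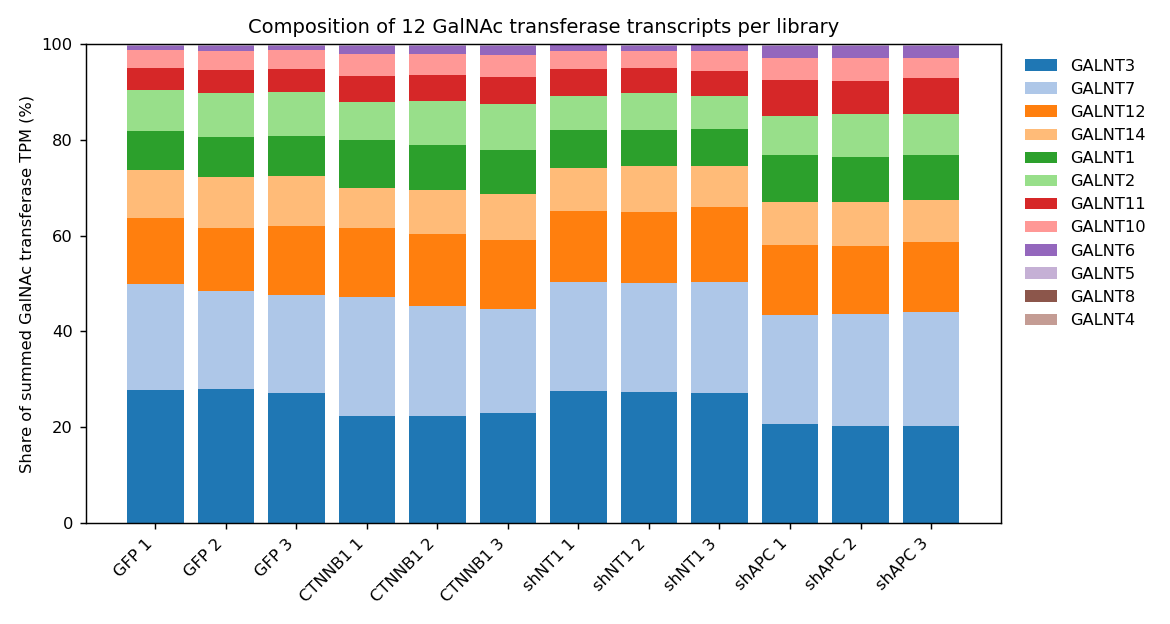
Share of the summed TPM of the 12 GalNAc transferases taken by each gene, 1 bar per library. The GALNT3 share at the bottom averages 27.6% in GFP and 27.3% in shNT1, and 22.6% in CTNNB1 and 20.4% in shAPC.

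Of the genes of core synthesis and branching, GCNT3 had the largest TPM, also the largest of the whole set, and it fell in both arms. GCNT3 (ENSG00000140297) measured 750.0, 695 and 720.4 TPM in GFP and 527, 490.3 and 453 TPM in CTNNB1. It measured 772, 772 and 819 TPM in shNT1 and 543, 553 and 517 TPM in shAPC. All perturbed libraries were below all controls of their arm. The log2 fold changes were -0.56 (SE 0.06, limma adjusted p = 0.00016) and -0.55 (SE 0.05, adjusted p = 7.7e-05), and their difference of -0.01 had a 95% interval from -0.18 to 0.16.

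C1GALT1, the synthase of the T antigen on which GCNT3 acts, rose in the CTNNB1 arm and was not called in the shAPC arm. C1GALT1 measured 50.2, 50.5 and 50.1 TPM in GFP and 65.8, 62.3 and 54.3 TPM in CTNNB1 (log2 fold change 0.27, SE 0.07, limma adjusted p = 0.022). Without any 1 GFP library or CTNNB1 replicate 2 the adjusted p lay between 0.069 and 0.074. Under the hairpin its means were 49.4 ± 2.5 and 50.9 ± 1.8 TPM (0.04, adjusted p = 0.65). The ratio of GCNT3 to C1GALT1 TPM was 14.4 ± 0.58 in GFP and 8.08 ± 0.25 in CTNNB1, and 16.0 ± 0.32 in shNT1 and 10.6 ± 0.080 in shAPC (SD, n = 3). C1GALT1C1, the chaperone that C1GALT1 needs, was called in neither arm, with log2 fold changes of -0.13 (limma adjusted p = 0.13) and -0.20 (adjusted p = 0.051). GCNT1, the branching enzyme of leukocytes and many other cells, stayed between 2.44 and 4.88 TPM. Its changes of 0.27 and -0.22 were called in neither arm.

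Of the 8 chain extension enzymes 5 were called lower and 0 higher under the APC hairpin, where 14.9% of all genes were lower and 7.24% higher. With CTNNB1 1 was called higher and 1 lower, where 16.3% of all genes were higher and 7.16% lower. B3GNT3 (ENSG00000179913), which extends the unbranched core, measured 32.3, 30.7 and 31.5 TPM in shNT1 and 18.5, 18.7 and 19.0 TPM in shAPC. The shAPC libraries lay far below and close together (log2 fold change -0.72, SE 0.06, limma adjusted p = 2.7e-05). In the CTNNB1 arm it measured 37.8, 37.5 and 39.5 TPM in GFP and 27.9, 33.5 and 33.8 TPM in CTNNB1 (-0.27, SE 0.08, adjusted p = 0.031). That call was lost without any 1 GFP library (adjusted p from 0.077 to 0.11). The difference between the arms was 0.45 (SE 0.09, limma adjusted p = 0.0064), and 0.34 under median-ratio scaling (adjusted p = 0.052).

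Of the galactosyltransferases, B4GALT1 was the clearest under the hairpin. B4GALT1, the enzyme that also forms lactose synthase in the breast, measured 79.6, 78.7 and 79.9 TPM in shNT1 and 60.9, 64.9 and 58.8 TPM in shAPC (log2 fold change -0.36, SE 0.05, limma adjusted p = 0.0013). In the CTNNB1 arm its libraries overlapped (84.1 ± 1.4 and 82.8 ± 4.7 TPM, -0.02). B4GALT4 fell from 37.2 ± 5.1 to 26.1 ± 1.1 TPM (-0.49, limma adjusted p = 0.0038). B3GALT5, which makes the type 1 chains that carry sialyl Lewis a, fell from 5.01 ± 0.22 to 3.38 ± 0.36 TPM (-0.46, limma adjusted p = 0.0075). B4GALT5 went from 82.1 ± 3.0 to 70.8 ± 3.8 TPM (-0.21, limma adjusted p = 0.027), a call kept only without shAPC replicate 2 among the 6 libraries left out in turn. Leaving out any other library gave an adjusted p from 0.051 to 0.10.

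B3GNT5 was the only member of this step called higher, in the CTNNB1 arm. B3GNT5, the lactotriaosylceramide synthase of glycolipid chains, measured 24.7, 25.3 and 24.7 TPM in GFP and 31.9, 30.2 and 28.3 TPM in CTNNB1 (log2 fold change 0.26, SE 0.06, limma adjusted p = 0.012). With shAPC it had -0.06 (limma adjusted p = 0.51). B3GNT2, the main polylactosamine enzyme, had 0.16 and -0.22 (limma adjusted p = 0.15 and 0.055), and B4GALT3 had -0.12 and 0.04. Neither was called.

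Of the fucosyltransferases 1 of 3 tested was called in the CTNNB1 arm and 1 of 4 in the shAPC arm. Among all genes 23.5% and 22.1% were called in these arms. FUT8, the enzyme of core fucose on N-linked chains, rose from 4.65 ± 0.16 TPM in GFP to 6.04 ± 0.14 TPM in CTNNB1 (log2 fold change 0.32, SE 0.07, limma adjusted p = 0.014), and was lost only without GFP replicate 3 (0.29, adjusted p = 0.056). With shAPC, FUT8 had -0.01. FUT4, a Lewis x fucosyltransferase, fell from 48.6 ± 4.0 TPM in shNT1 to 40.5 ± 3.4 TPM in shAPC (-0.26, SE 0.08, limma adjusted p = 0.038). The FUT4 call was lost without shNT1 replicate 2 or 3 and without shAPC replicate 1 or 3 (adjusted p from 0.051 to 0.14). FUT2, the secretor enzyme, had 0.10 and -0.06 on the log2 scale, and FUT3 had 0.18 in the shAPC arm (limma adjusted p = 0.34). Neither was called.

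Of the sialyltransferases, ST3GAL1 fell and ST6GAL1 rose in both arms. These 2 enzymes differ in linkage and in the chains they cap. ST3GAL1 (ENSG00000008513), which caps the T antigen with sialic acid, measured 203, 205 and 214 TPM in GFP and 146, 146 and 144 TPM in CTNNB1. It measured 180.0, 195 and 198 TPM in shNT1 and 134, 134 and 119 TPM in shAPC. Its log2 fold changes were -0.51 (SE 0.04, limma adjusted p = 5.1e-05) and -0.56 (SE 0.06, adjusted p = 0.00025). ST6GAL1 (ENSG00000073849), which places sialic acid in the other linkage on N-linked chains, measured 14.9, 15.2 and 16.5 TPM in GFP and 27.3, 27.6 and 22.6 TPM in CTNNB1.

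In the hairpin arm ST6GAL1 measured 19.6, 21.4 and 21.6 TPM in shNT1 and 29.3, 30.4 and 28.9 TPM in shAPC. Its log2 fold changes were 0.70 (SE 0.08, limma adjusted p = 0.00036) and 0.48 (SE 0.06, adjusted p = 0.00059), with every perturbed library above its controls. The ratio of ST3GAL1 to ST6GAL1 TPM went from 13.4 ± 0.40 in GFP to 5.67 ± 0.61 in CTNNB1 and from 9.15 ± 0.044 in shNT1 to 4.38 ± 0.24 in shAPC (SD, n = 3). The difference between the arms was not called for either gene, at 0.05 for ST3GAL1 (95% interval -0.11 to 0.22) and 0.21 for ST6GAL1 (-0.01 to 0.44).

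ST6GALNAC1, the synthase of the tumour antigen sialyl-Tn, fell only under the hairpin by the test of each arm. It measured 8.97, 11.4 and 10.3 TPM in shNT1 and 6.21, 6.41 and 6.41 TPM in shAPC (log2 fold change -0.60, SE 0.09, limma adjusted p = 0.0013). With CTNNB1 the means were 7.06 ± 0.84 and 6.92 ± 0.64 TPM (-0.02, adjusted p = 0.88). The difference between the arms was 0.58 (SE 0.14, limma adjusted p = 0.012), and 0.48 under median-ratio scaling, where it just missed the threshold (adjusted p = 0.050). ST3GAL4, which caps lactosamine chains, went from 51.3 ± 2.2 to 43.5 ± 2.3 TPM under the hairpin (-0.23, limma adjusted p = 0.021). Its call was lost under median-ratio scaling (adjusted p = 0.057) and without shNT1 replicate 1 or 2 or shAPC replicate 1 or 3 (adjusted p from 0.060 to 0.079). ST6GALNAC4 and ST6GALNAC6 were called in neither arm, with log2 fold changes between -0.18 and 0.08.

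**Figure D4:**
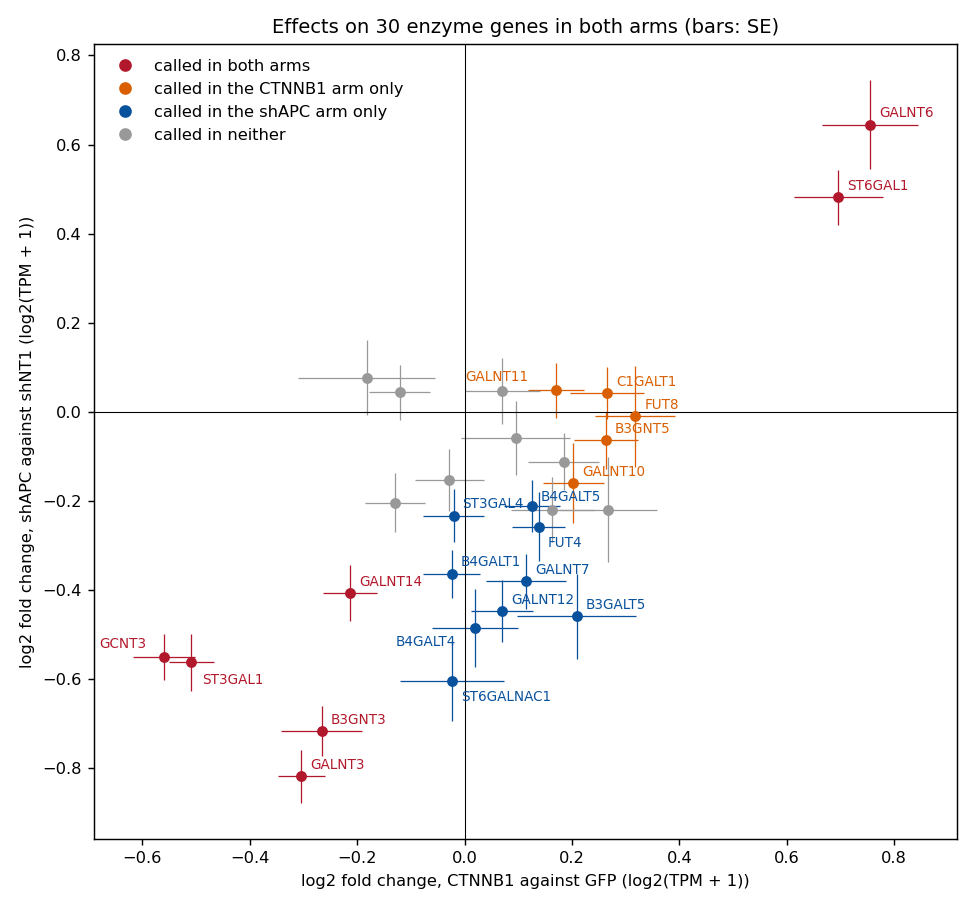
Log2 fold change with its SE for the 30 genes tested in both arms, CTNNB1 against GFP on the horizontal axis and shAPC against shNT1 on the vertical. Red marks the 7 genes called in both arms, with GALNT6 and ST6GAL1 at the upper right, orange the 5 called in the CTNNB1 arm only, blue the 9 called in the shAPC arm only, and grey the rest.

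The arms were compared directly by subtracting the shAPC log2 fold change from that of CTNNB1. Of 31 members tested, 15 were called, 15 with a positive and 0 with a negative difference. Of all 11741 genes 16.1% were called, 13.3% positive and 2.76% negative. The median difference was 0.30 for the members and 0.11 for all genes. With median-ratio scaling the latter became 0.00, and 8 members were then called, 8 positive and 0 negative, beside 786 positive and 650 negative among all genes. Those 8 were GALNT3, GALNT7, GALNT12, B4GALT1, B4GALT4, B4GALT5, B3GALT5 and FUT4. The member count was 9 without shAPC replicate 3.

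The supply of activated sugars was described with a list of 21 genes for the synthesis and Golgi transport of sugar donors, of which 20 were tested in each arm. With CTNNB1 6 were called, 1 higher and 5 lower, and with shAPC 7 were called, 0 higher and 7 lower. The list medians were -0.08 and -0.13 on the log2 scale. Of all genes 23.5% and 22.1% were called in these arms. Called lower in both arms were SLC35A1, CMAS and NANS, which act in sialic acid supply. SLC35A1, the Golgi transporter of CMP-sialic acid, averaged 108 ± 1.5 TPM in GFP and 85.4 ± 4.7 in CTNNB1 (log2 fold change -0.34, limma adjusted p = 0.0015), and 122 ± 8.4 in shNT1 and 93.5 ± 5.1 in shAPC (-0.38, adjusted p = 0.0025). CMAS, the enzyme that activates sialic acid, had -0.23 (adjusted p = 0.0084) and -0.31 (adjusted p = 0.0041). NANS, the sialic acid synthase, had -0.23 (limma adjusted p = 0.0058) and -0.46 (adjusted p = 0.0014). The list's other genes of sialic acid synthesis differed from these. NANP, the phosphatase of the pathway, was called in neither arm, with means of 19.2 and 20.1 TPM in GFP and CTNNB1 and 19.5 and 19.4 TPM in shNT1 and shAPC. GNE, which starts the same pathway, had 0.00 in the CTNNB1 arm and -0.38 in the shAPC arm, where it was called (limma adjusted p = 0.0022). GMDS of GDP-fucose synthesis was higher in the CTNNB1 arm (0.28, limma adjusted p = 0.0040).

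Further enzymes of the pathway were mostly below the minimum level or not called. Of 47 on the list 12 were tested in the CTNNB1 arm, with 1 higher and 1 lower, and 14 in the shAPC arm, with 0 higher and 2 lower. Among all genes 16.3% were higher and 7.16% lower in the CTNNB1 arm, and 7.24% and 14.9% in the shAPC arm. FUT1, the H antigen fucosyltransferase of red cells, rose with CTNNB1 from 1.65 ± 0.14 to 3.56 ± 0.29 TPM (log2 fold change 0.78, limma adjusted p = 0.00044). GCNT2, the I-branching enzyme, fell there from 12.2 ± 1.1 to 6.05 ± 0.57 TPM (-0.91, limma adjusted p = 0.00012). For both genes the GFP mean stood apart from the other 3 groups, with FUT1 at 3.51 TPM in shNT1 and 4.04 TPM in shAPC, and GCNT2 at 5.32 and 4.95 TPM. CHST4, a sulfotransferase (-0.53, limma adjusted p = 0.016), and the galactosyltransferase B4GALT2 (-0.30, adjusted p = 0.017) fell in the shAPC arm.

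Mucins, the main carriers of these chains, were thinly expressed apart from MUC13 and MUC5AC, and 5 of 14 were tested in each arm. With CTNNB1 3 were higher and 1 lower, where 16.3% and 7.16% of all genes were. With shAPC 2 were higher and 1 lower, where 7.24% and 14.9% of all genes were. MUC1, a transmembrane mucin, rose from 1.24 ± 0.13 to 2.77 ± 0.37 TPM (log2 fold change 0.75, limma adjusted p = 0.0012) and from 1.42 ± 0.20 to 2.41 ± 0.14 TPM (0.50, adjusted p = 0.012). MUC5AC, a gel-forming mucin of the stomach, fell in both arms (-1.06, limma adjusted p = 0.0016, and -1.60, adjusted p = 0.00016). MUC3A (0.34, limma adjusted p = 0.024) and MUC20 (0.27, adjusted p = 0.035) rose in the CTNNB1 arm, and MUC13 (0.21, adjusted p = 0.021) in the shAPC arm. MUC2, the main mucin of normal colon, averaged between 0.252 and 0.700 TPM in the 4 groups and was not tested.

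All goblet cell genes that were called were lower, in either arm. The called enzymes were mostly lower under the APC hairpin. With CTNNB1 7 of them were higher and 5 lower as fitted, and under median-ratio scaling 5 were higher and 6 lower. Of 12 on the goblet list 9 were tested. In the CTNNB1 arm 0 were higher and 5 lower, where 16.3% and 7.16% of all genes were. In the shAPC arm 0 were higher and 7 lower, where 7.24% and 14.9% of all genes were. The median log2 fold changes of the 9 genes were -0.45 and -0.73. TFF3 (0.31, limma adjusted p = 0.08) and ATOH1 (0.11, adjusted p = 0.61) had positive changes in the CTNNB1 arm and were not called. CLCA1 and ZG16, also on the list, were each at 0 TPM in 11 of the 12 libraries and were not tested. The list was chosen with results of these data known and is not independent evidence. Its summed TPM ranged from 1777 to 1835 in GFP and 1223 to 1357 in CTNNB1, and from 2213 to 2254 in shNT1 and 1564 to 1667 in shAPC. CREB3L1, a secretory-pathway transcription factor, had -0.45 (limma adjusted p = 0.0011) and -0.73 (adjusted p = 4.4e-05), and KLF4 had -0.52 (adjusted p = 0.0016) and -0.73 (adjusted p = 0.00027). AGR2, a mucin-folding enzyme, had -0.46 and REG4 -1.43 in the CTNNB1 arm (limma adjusted p = 0.00022 and 6.6e-07). With shAPC the secreted goblet products SPINK4 and REG4 had -2.73 and -2.15 (limma adjusted p = 7.6e-05 and 3.5e-07), and TFF1 fell from 13.3 ± 3.7 to 6.03 ± 0.70 TPM (adjusted p = 0.0014). The part of this shift in the enzyme changes was not tested.

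The authors' deposited tables were read for the same genes. They held all 36 members, including those not tested here. The share of all genes called in them was not computed, so the counts below have no background beside them. In the authors' deposited table for CTNNB1, 11 of 36 members had an adjusted p under 0.05, 7 higher and 4 lower, and 10 of them were also called from TPM. In the authors' deposited table for APC, 14 had one, 2 higher and 12 lower, and 14 of them were also called from TPM. The calls made only from TPM were C1GALT1 and B3GNT3 in the CTNNB1 arm and FUT4 and ST3GAL4 in the shAPC arm, with adjusted p of 0.096, 0.087, 0.10 and 0.16 in the authors' deposited tables. GCNT1 was called only in the authors' deposited table for CTNNB1 (log2 fold change 0.29, adjusted p = 0.038).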

How the data were processed

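RNA-seq of 12 HT-29 libraries was used as a table of TPM deposited by the authors, each column summing to 1000000. Per the submitters' processing notes, STAR 2.7.3a, limma and the build hg38 were used, while the annotation and the quantification tool are not given in the sources used here. The authors also deposited limma tables with log2 fold changes and p-values, which were only set beside the results.

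For each arm, log2(TPM + 1) of genes averaging at least 1 TPM over its 6 libraries was fitted in R 4.3.3 by limma 3.58.1, with a variance trend. A gene was called at a Benjamini-Hochberg adjusted p under 0.05 over all genes tested. The contrast of the arms used all 12 libraries. Because 1 is added, fold changes of low genes are understated. The fits were tested on simulated data. Promoter sequences came from RefSeq (GRCh38.p14). Members were all described, and of each wider list up to 4 called genes with the largest change per arm were named, except 1 that is not reported here. Members and lists were chosen with earlier results of these data known. Alternatives tried were adding 0.1 in place of 1, no filter, a minimum of 5 TPM, median-ratio scaling, quantile normalization, no variance trend, a replicate block, a single fit of the 4 groups, and each library left out.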

Additional observations from a re-analysis of the deposited data

Results flagged for a closer look

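For 15 members the effect of CTNNB1 differed from the effect of shAPC by the contrast of the arms itself (limma, adjusted p under 0.05). Of the 11741 genes tested 16.1% were called, 13.3% with a positive and 2.76% with a negative difference. The median difference of all genes was 0.11, and 0.00 with median-ratio scaling. The arms also differed in vector, collection time and doxycycline, so these differences cannot be assigned to the perturbations alone. Each difference is the CTNNB1 log2 fold change minus the shAPC log2 fold change.

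Among GalNAc transferases the difference was 0.30 for GALNT1, 0.51 for GALNT3, 0.49 for GALNT7, 0.36 for GALNT10 and 0.52 for GALNT12. For the branching enzyme GCNT1 it was 0.49. Among chain extension enzymes it was 0.38 for B3GNT2, 0.45 for B3GNT3, 0.33 for B3GNT5, 0.34 for B4GALT1, 0.50 for B4GALT4, 0.34 for B4GALT5 and 0.67 for B3GALT5. Among capping enzymes it was 0.40 for FUT4 and 0.58 for ST6GALNAC1. Of these 15, 7 kept their call under every alternative in which they were tested. They were GALNT3, GALNT7, GALNT12, B3GALT5, B4GALT1, B4GALT5 and FUT4. B3GALT5 was not tested with the minimum of 5 TPM, and the largest limma adjusted p of FUT4 was 0.05 after rounding.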

How the results depend on the processing

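No called member changed sign under any alternative run. In the CTNNB1 arm 6 of 12 called members kept their call under every alternative (GALNT3, GALNT6, GCNT3, ST3GAL1, ST6GAL1 and B3GNT5). In the shAPC arm 13 of 16 did (all but B4GALT5, FUT4 and ST3GAL4), and 7 of 15 in the contrast of the arms. B3GALT5, counted in the shAPC arm and the contrast, was below the minimum of 5 TPM and was not tested under that alternative. B3GNT5 in the CTNNB1 arm came to the edge of the threshold with 1 library left out (limma adjusted p = 0.05 after rounding). FUT4 in the contrast came as close under a setting that kept all libraries (limma adjusted p = 0.05 after rounding). Median-ratio scaling left 8 of 15 members called in the contrast. Higher calls made up 69.5% of all called genes in the CTNNB1 arm as fitted, 46.2% with median-ratio scaling and 53% with quantile normalization. The same shares were 32.8%, 44.3% and 49.4% in the shAPC arm and 82.8%, 54.7% and 56.9% in the contrast.

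With the replicate block 11 members were called in the CTNNB1 arm, 14 in the shAPC arm and 11 in the contrast, where the count of all genes went from 1885 to 1145. The count of all genes went from 2730 to 2895 in the CTNNB1 arm and from 2615 to 1767 in the shAPC arm. Same-numbered libraries correlated in their deviations by 0.209, 0.0757 and 0.121 in the CTNNB1 arm and by -0.138, 0.00247 and -0.21 in the shAPC arm. In the CTNNB1 arm GFP replicates 1 and 3 correlated best with their own number, and GFP replicate 2 had 0.076 with CTNNB1 replicate 3. The labels give only a number, and 3 libraries per group cannot settle whether libraries were paired.

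Leaving out 1 library gave 6 to 14 called members and 1499 to 3190 called genes in the CTNNB1 arm (main counts 12 and 2730). The member count was 7 without GFP replicate 2 and 6 without GFP replicate 3. The gene count was 1617, 1499 and 1705 without GFP replicate 1, 2 and 3, and 1760 without CTNNB1 replicate 2. In the shAPC arm it gave 13 to 16 members and 1484 to 2252 genes (main counts 16 and 2615), with 1646 genes without shAPC replicate 2 and 1484 without replicate 3. In the contrast it gave 9 to 17 members and 995 to 2143 genes (main counts 15 and 1885), with 9 members without shAPC replicate 3. The contrast had 1092 and 995 genes without GFP replicate 1 and 2, and 1246 and 1021 without shAPC replicate 2 and 3. Fewer samples enter these fits. Depth is unknown, which limits what can be said of the 5 members under 1 TPM.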
